A study of Mus musculus with 6 samples.

Results

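The genes described here serve the endoplasmic reticulum (ER), the compartment in which secreted and membrane proteins fold. They are a list of named genes, put together by function with earlier results of these data known: the sensors and transcription factors of the unfolded protein response, ER chaperones, protein disulfide isomerases, the machinery of ER-associated degradation (ERAD), the Sec61 translocon, the ER sheet protein Ckap4 and the COPII coat proteins Sec23a and Sec24d. The list holds 33 of the 55487 genes in the tables, and all 33 were found. RNA came from chondrocytes of C57B/6 mouse knee cartilage that were cultured for 24 h with macrophage vesicles, dosed by protein at 10 µg/ml. The vesicles of 3 libraries came from macrophages for which the labels name no stimulus (M-EV), and those of the other 3 from macrophages stimulated with LPS, a component of bacterial outer membranes (M-LPS-EV). Both groups received vesicles, so every value is a difference between vesicle types, and cells without vesicles were not analysed here. The age and sex of the mice, the passage of the cells and the kind of macrophage were not found in the labels. The labels also do not say that replicates were separate cultures; the p-values therefore rest on library-to-library spread alone, part or all of which could be technical.

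Proteins that enter the ER lumen are bound by chaperones such as BiP (Hspa5), receive disulfide bonds from disulfide isomerases, and leave in COPII vesicles once folded. Proteins that fail to fold are drawn back through the membrane and destroyed by ERAD. When unfolded protein builds up, the membrane sensors IRE1 (Ern1), PERK (Eif2ak3) and ATF6 (Atf6) start the unfolded protein response: IRE1 splices the Xbp1 mRNA, ATF6 is cut to release a transcription factor, and PERK slows translation. Chondrocytes secrete large amounts of collagen and proteoglycan, and cartilage depends on this machinery; CREB3L2 (BBF2H7), a relative of ATF6, is known to drive Sec23a in chondrocytes.

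Most of these genes were slightly lower in chondrocytes given M-LPS-EV. Of the 32 members with enough counts for the test 27 fell and 1 rose, with 4 not called, against 15.2% of all 14604 tested genes called lower and 16.4% called higher (adjusted p under 0.05, edgeR quasi-likelihood test, two-sided, Benjamini-Hochberg adjustment over all tested genes). In a fit of only the 11761 genes with a mean count of at least 50, these shares of all genes were 18.4% and 19.0%. The median log2 fold change of M-LPS-EV over M-EV was -0.16 over the members and 0.003 over all tested genes. BiP, with the largest fall, dropped by 21.1%. The gene that rose was Creb3l1, a membrane-bound transcription factor related to ATF6, by 55.2%. The groups did not overlap, with M-LPS-EV lower, for the 27 members that fell, a pattern seen in 20.6% of all tested genes. In bulk RNA, fewer cells of a type and less RNA per cell cannot be told apart. The falls were small: when a change had to exceed 1.2-fold, only Hspa5 (adjusted p = 0.000148, edgeR glmTreat) and Creb3l1 (adjusted p = 4.7e-09) were called, against 2.58% of all genes called lower and 5.2% called higher in that test. On log2(TPM + 1) 23 members fell in limma-trend, against 9.19% of genes lower and 8.76% higher. DESeq2 called 27 lower, against 7.16% lower and 7.59% higher of the 25744 genes to which it gave a p-value. That base is wider than the 14604 genes of the other tests, so its shares are not comparable with theirs. Creb3l1 rose in both.

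**Figure D1:**
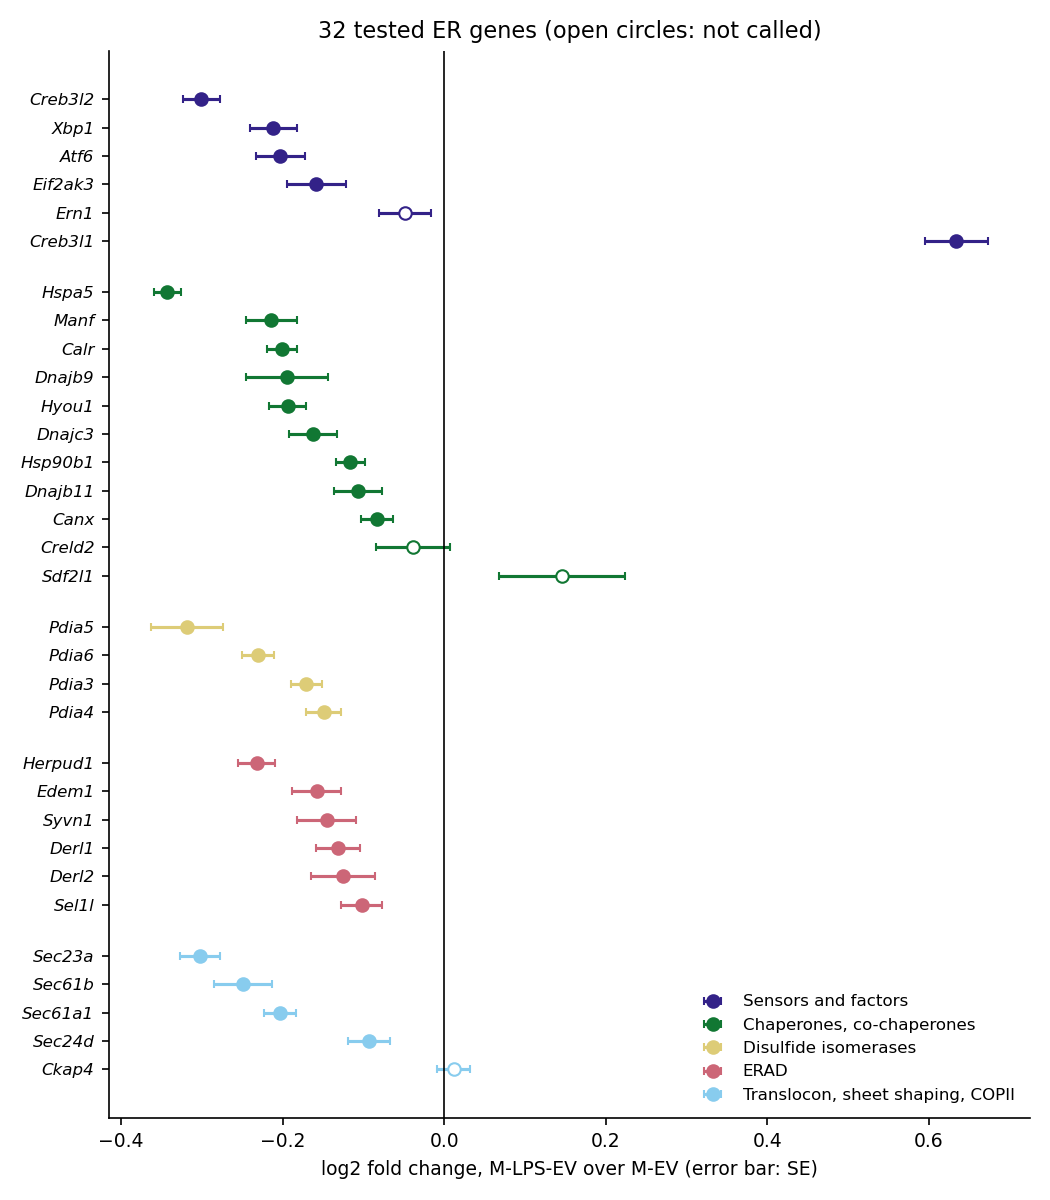
Log2 fold change of M-LPS-EV over M-EV (x axis) for the 32 tested ER genes (y axis), grouped and coloured by role. Error bars are the SE derived from the F statistic of the test, and open circles were not called. 27 genes lie left of 0 and are called, and Creb3l1, at 0.63, stands alone on the right among called genes.

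Sequences before the start of transcription show what many of these genes share. ATF6, with the factor NF-Y, and XBP1 act through the ER stress response element (ERSE), CCAAT and CCACG with any 9 bases between them, and ERSE-II, ATTGG and CCACG with any 1 base between them. RefSeq promoters of build GRCm38.p6, 250 bases before to 50 after the start, were matched for 27 members and searched on both strands. An exact ERSE was found in 9 of the 27, or 33.3%, against 37 of all 27025 genes in the table, or 0.137%. Those 37 include the 9 members. Of 97 other ER pathway genes with a promoter 1.03% held an exact ERSE. The members were listed for roles in the ER and its stress response, so a high share could follow from that choice alone. The sites are shown because their outer blocks are alike while the 9 bases between them differ; each is given 5′ to 3′ in the direction of the motif, with the fixed bases in capitals.
Hspa5: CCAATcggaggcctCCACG
Hsp90b1, far site: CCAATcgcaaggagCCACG
Hsp90b1, near site: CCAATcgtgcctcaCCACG
Calr: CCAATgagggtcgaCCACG
Canx: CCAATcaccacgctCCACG
Dnajc3: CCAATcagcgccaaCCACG
Creld2: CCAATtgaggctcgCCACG
Pdia6: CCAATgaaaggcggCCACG
Syvn1: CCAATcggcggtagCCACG
Derl3: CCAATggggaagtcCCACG

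Every one of the 9 is a chaperone, a disulfide isomerase or an ERAD gene, and the sites began between 44 and 212 bases before the start. Hsp90b1 carried 2. An exact ERSE-II was found in Herpud1 (ATTGGgCCACG, 52 bases before the start) and in Dnajb11 (ATTGGcCCACG, 7 bases after it), against 0.0444% of all genes. ERSE-II holds the block CCACG, as ERSE does, and CCACG alone was in a promoter of 22 of the 27 members, or 81.5%, and of 35.5% of all genes. Among the 97 other ER pathway genes with a promoter it was in 68.0%. The UPRE core TGACGTGG, a site of XBP1 and ATF6, was found in Sec23a and Sec24d. That is 7.41% of members, against 4.12% of the 97 other ER pathway genes and 0.714% of all genes. The cyclic AMP response element TGACGTCA was in a promoter of 0 members and of 2.03% of all genes. Atf6, Creb3l1, Derl1, Hyou1, Manf and Sec61a1 were not matched. A match describes letters only and does not show binding.

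The 250 bases before the start of 3 of these genes are shown to place the sites, with the fixed bases of exact ERSE and ERSE-II matches in capitals and the strand of the gene read 5′ to 3′. They are at chr2:34771840-34772089 (plus strand) for Hspa5, chr10:86705445-86705694 (minus strand) for Hsp90b1 and chr8:94386179-94386428 (plus strand) for Herpud1. The start used is that of RefSeq. The gene coordinates given further below are those of GENCODE M21, and for Hspa5 and Hsp90b1 they reach into these stretches. The Hspa5 site, at chr2:34772025-34772043, thus lies inside the gene as GENCODE M21 draws it. The near Hsp90b1 site lies on the opposite strand and so reads CGTGG first.
Hspa5: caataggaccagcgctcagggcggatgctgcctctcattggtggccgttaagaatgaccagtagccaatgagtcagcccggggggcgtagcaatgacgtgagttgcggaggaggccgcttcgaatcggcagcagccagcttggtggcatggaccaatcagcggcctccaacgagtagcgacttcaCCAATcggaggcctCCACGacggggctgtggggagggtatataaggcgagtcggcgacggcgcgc
Hsp90b1: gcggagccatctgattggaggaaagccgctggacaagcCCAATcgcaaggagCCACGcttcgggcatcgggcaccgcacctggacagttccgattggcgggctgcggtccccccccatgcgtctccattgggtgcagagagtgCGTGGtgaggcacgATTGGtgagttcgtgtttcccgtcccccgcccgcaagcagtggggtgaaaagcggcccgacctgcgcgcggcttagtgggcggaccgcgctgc
Herpud1: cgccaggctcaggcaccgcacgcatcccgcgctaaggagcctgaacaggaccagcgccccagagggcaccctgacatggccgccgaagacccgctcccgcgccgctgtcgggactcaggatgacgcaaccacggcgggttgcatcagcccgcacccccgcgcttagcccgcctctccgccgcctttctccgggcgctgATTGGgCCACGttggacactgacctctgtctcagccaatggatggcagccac

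The fold changes of members with and without the motif can be set side by side. The 8 tested members with an ERSE had a median log2 fold change of -0.15 (range -0.34 to -0.04), and 7 of them fell. The 18 with a promoter and no ERSE had a median of -0.16 (range -0.32 to 0.15), and 15 fell. They include Herpud1 (-0.23) and Dnajb11 (-0.11), which hold an ERSE-II. Outside the members 28 genes had an exact ERSE, of which 11 could be tested; 1 fell and 2 rose, with a median of -0.04, against 16.1% called lower and 17.2% called higher among all 10604 tested genes with a promoter. No difference between these sets was tested.

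**Figure D2:**
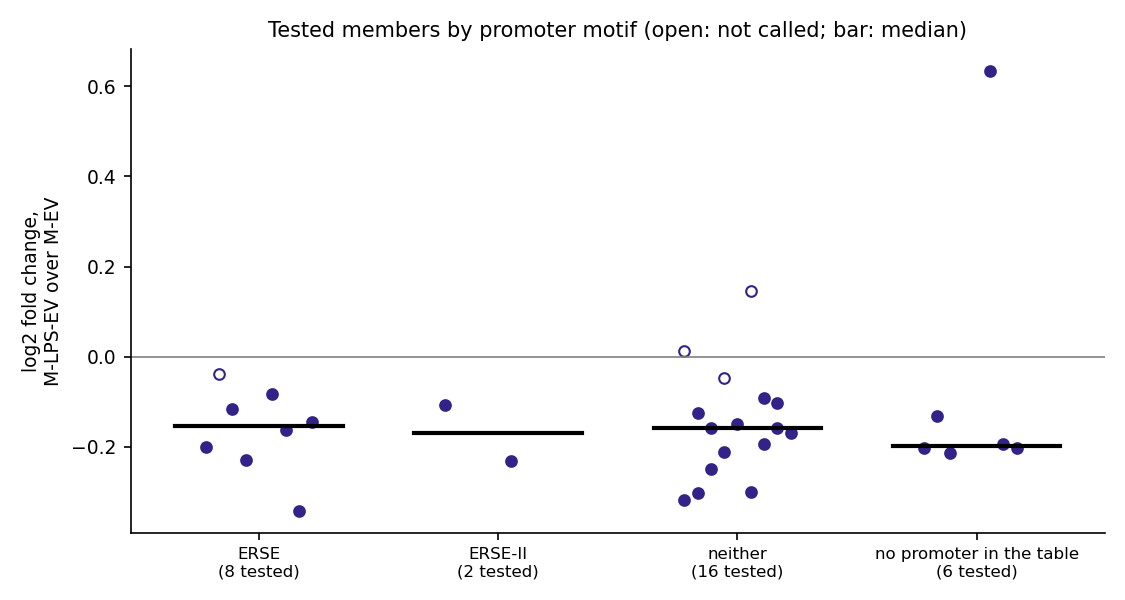
Log2 fold change of M-LPS-EV over M-EV (y axis) of the tested members, by the motif in the RefSeq promoter (x axis); each point is a gene, open points were not called, and bars are medians. The point clouds with an ERSE and with neither motif overlap, with medians of -0.15 and -0.16.

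Among the sensors and transcription factors 4 of 6 fell, 1 rose and 1 was not called. Creb3l1 (OASIS), known in osteoblasts for driving collagen production, lies on chromosome 2 from 91982328 to 92024502 in mm10. It stood at 38.0, 37.6 and 38.8 CPM (counts scaled to library size with TMM factors) in the M-EV libraries and at 59.1, 59.2 and 59.3 CPM in the M-LPS-EV libraries. Every M-LPS-EV library was above every M-EV library, and the log2 fold change was 0.63 (SE 0.04; edgeR, adjusted p = 1.28e-12). Its relative Creb3l2, on chromosome 6 from 37327255 to 37442146, moved the other way, from 371, 388 and 387 CPM to 312, 306 and 312 CPM. The log2 fold change was -0.30 (SE 0.02; edgeR, adjusted p = 6.33e-11), and the groups did not overlap. Creb3l2 had the higher level of the pair in both groups per length as well: its mean was 100.2 TPM with M-EV and 81.1 TPM with M-LPS-EV, against 27.8 and 42.7 TPM for Creb3l1. The ratio of their levels thus narrowed.

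The ATF6 gene, on chromosome 1 from 170704674 to 170867771, stood at 148, 151 and 147 CPM with M-EV and 134, 128 and 126 CPM with M-LPS-EV. All M-LPS-EV libraries were lower (log2 change -0.20 with SE 0.03, edgeR adjusted p = 6.52e-06). Eif2ak3, the PERK gene on chromosome 6 from 70844515 to 70905245, went from 70.4, 67.5 and 68.2 CPM to 60.4, 62.6 and 61.7 CPM, again without overlap (-0.16, SE 0.04, edgeR adjusted p = 0.00156). Ern1, the IRE1 gene on chromosome 11 from 106394650 to 106487852, was the sensor that was not called. Its libraries were at 138, 129.9 and 143 CPM and at 132, 134 and 132 CPM, with the M-LPS-EV values inside the M-EV range (log2 change -0.05 with SE 0.03, edgeR adjusted p = 0.287). Whether Ern1 differed from the other sensors in its change was not tested.

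**Figure D3:**
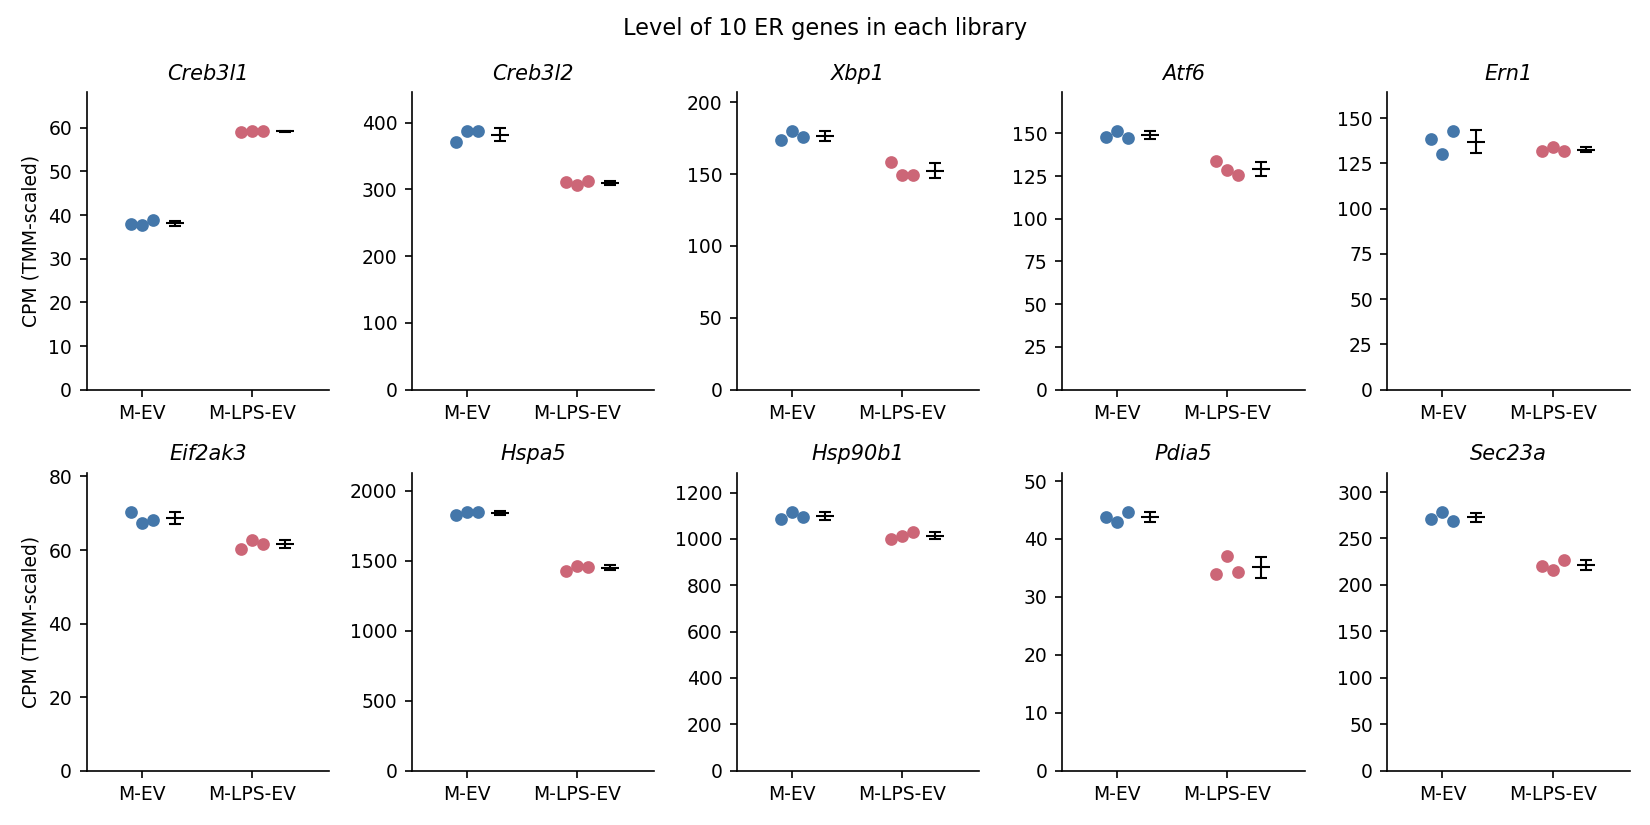
CPM (y axis, from 0) of 10 ER genes in each library, M-EV in blue and M-LPS-EV in red; the bar beside each group is its mean ± SD (n = 3). Creb3l1 is higher in all 3 M-LPS-EV libraries, Ern1 overlaps, and the other 8 genes are lower in all 3.

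Xbp1, on chromosome 11 from 5520659 to 5525893, encodes the transcription factor that IRE1 activates by splicing. The gene stood at 174, 180.1 and 176 CPM with M-EV and 159, 149 and 149 CPM with M-LPS-EV, or -0.21 on the log2 scale (fitted SE 0.03; edgeR, adjusted p = 2.02e-06). All M-LPS-EV libraries were below all M-EV libraries. The level of the gene does not show splicing, which removes a short stretch of the coding sequence. In the transcript Xbp1-201 of GENCODE M21 the motif of IRE1 cut sites, CNGCAGN, occurs as a pair 26 bases apart in exon 4, and the stretch between the cuts lies at chr11:5524279-5524304. It is shown in capitals with 20 bases on each side, on the plus strand, because it is what separates the unspliced from the spliced message.
Xbp1-201: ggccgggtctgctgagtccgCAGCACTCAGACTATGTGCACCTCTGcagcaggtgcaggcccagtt

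With these 26 bases the reading frame from the annotated start has 267 codons. Without them it runs to 371 codons, or 1116 bases with the stop codon. Another pair of the same spacing lies near the start of the coding sequence, and removing the bases between it would leave 73 codons. The deposited tables hold 5 Xbp1 rows. The row ENSMUST00000239150, which is not in M21, has a length of 1116 bases, the length of the spliced frame, and was listed at 0 in all 6 libraries. Its sequence was not used here, and an estimate of 0 can also be a failed estimate, so the spliced form was not measured by these tables.

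Of the other 4 Xbp1 rows 1 held most of the gene's TPM. Xbp1-201, whose annotated sequence is the unspliced form, was at 149.7, 154.9 and 152.3 TPM with M-EV. With M-LPS-EV it was at 136.1, 126.4 and 128.1 TPM, without overlap. Spliced message lacks only 26 bases of this sequence, so its reads could be counted in the Xbp1-201 row too. This row made up 89.1% ± 0.25 and 88.8% ± 1.10 (SD, n = 3 each) of the gene's TPM. The retained-intron transcript Xbp1-202 was at 4.41% ± 0.48 and 5.74% ± 0.98, with every M-LPS-EV library above every M-EV library. Its exact two-sided permutation p was 0.10, the smallest that 3 against 3 allows, and 0.40 after Benjamini-Hochberg adjustment over the 4 transcripts. Xbp1-203 and Xbp1-204 were each under 5% in every library and overlapped between groups (exact permutation p = 0.60 and 0.50).

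**Figure D4:**
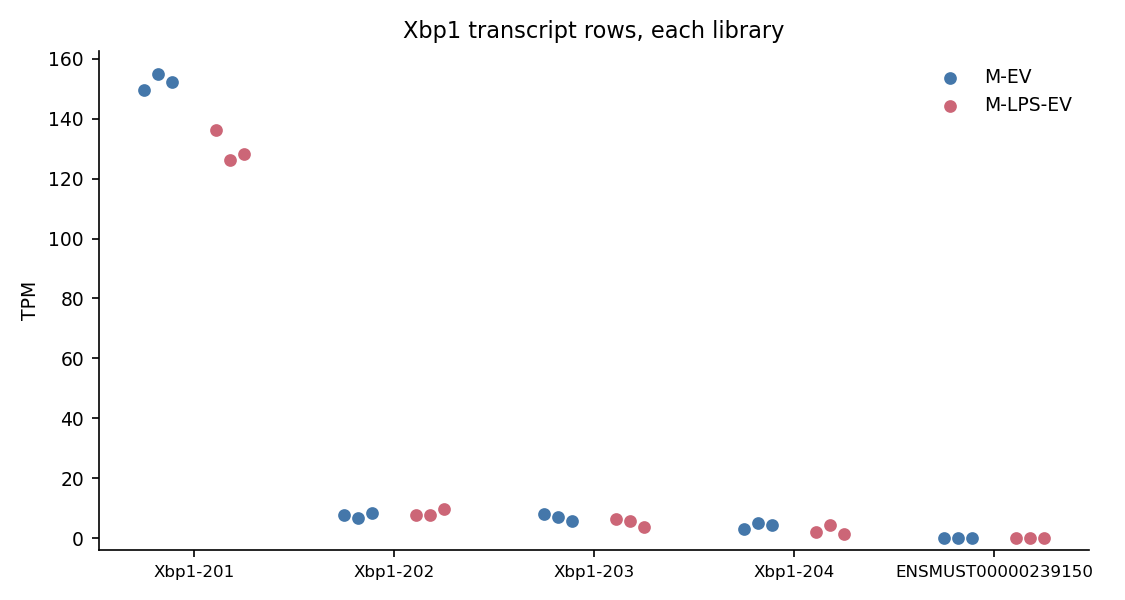
TPM (y axis) of the 5 Xbp1 transcript rows (x axis) in each library, M-EV in blue and M-LPS-EV in red. Xbp1-201 holds most of the gene in all 6 libraries and is lower with M-LPS-EV, and ENSMUST00000239150 is listed at 0 in each.

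Of 11 chaperones and their partners 9 fell and 2 were not called. Hspa5 encodes BiP, the main HSP70 of the ER lumen, and lies on chromosome 2 from 34771970 to 34777547. It stood at 1826, 1850.2 and 1846 CPM with M-EV and at 1429.9, 1466 and 1459 CPM with M-LPS-EV. The groups were far apart beside their spread, and the log2 fold change was -0.34 (SE 0.02; edgeR, adjusted p = 8.19e-15). Hsp90b1, the ER form of HSP90 (GRP94), on chromosome 10 from 86690209 to 86705509, went from 1084, 1117 and 1096 CPM to 999, 1014 and 1028 CPM. Its groups did not overlap either, but the change was smaller (-0.12, SE 0.02, edgeR adjusted p = 1.53e-05).

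The lectin chaperones hold newly glycosylated proteins until they fold. Calr (calreticulin) fell from 1101 ± 5.60 to 958 ± 19.6 CPM (± SD over 3 libraries each), and Canx (calnexin), its membrane-bound relative, from 682 ± 8.08 to 644 ± 10.6 CPM. BiP works with J-domain partners that start its ATP cycle and with Hyou1 (GRP170), which renews its nucleotide. Hyou1 fell from 323.7 ± 2.44 to 283 ± 6.40 CPM. Among the J proteins Dnajb9 fell by 12.6%, Dnajb11 fell by 7.13% and Dnajc3 fell by 10.6%. For Dnajb9 the libraries were close to overlapping: 53.0, 54.3 and 53.9 CPM with M-EV, and 43.9, 44.5 and 52.7 CPM with M-LPS-EV. With an offset for effective transcript length, Canx (edgeR adjusted p = 0.331), Dnajb9 (adjusted p = 0.0793) and Dnajb11 (adjusted p = 0.0534) were no longer called, against 9.09% of all genes called lower in that fit. Manf, a secreted ER stress protein that binds BiP, fell from 138 ± 4.72 to 119 ± 2.87 CPM.

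The 2 chaperone-group members not called were Sdf2l1, a partner of BiP and its J proteins, and Creld2, an ER stress protein that cartilage cells make. Sdf2l1 stood at 11.7, 11.8 and 10.9 CPM with M-EV and 11.97, 13.1 and 12.9 CPM with M-LPS-EV. Its M-LPS-EV libraries were all higher, as in 21.5% of tested genes, by 0.15 on the log2 scale (SE 0.08), which was not called (edgeR, adjusted p = 0.171). Creld2 overlapped, at 39.2 ± 1.65 and 38.1 ± 1.59 CPM (-0.04, SE 0.05, edgeR adjusted p = 0.576). A miss of the threshold does not show that these levels were equal.

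All 4 disulfide isomerases fell. These enzymes form and reshuffle disulfide bonds in folding proteins. Pdia5, on chromosome 16 from 35397312 to 35490873, went from 43.7, 43.0 and 44.7 CPM to 33.9, 37.1 and 34.3 CPM. It is also known for acting on ATF6, and its log2 fold change was -0.32 (SE 0.04; edgeR, adjusted p = 2.89e-06). Pdia6 fell by 14.7%, Pdia3 fell by 11.2% and Pdia4 fell by 9.82%. Pdia3 (ERp57), which works with calnexin and calreticulin, was the most abundant, with 563 ± 8.77 TPM with M-EV and 496 ± 5.14 TPM with M-LPS-EV.

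All 6 tested ERAD genes fell, with log2 fold changes between -0.23 and -0.10. Herpud1, a membrane scaffold of the ERAD complex and a classic target of the stress response, dropped from 259.5 ± 1.78 to 221 ± 1.41 CPM (-0.23, SE 0.02, edgeR adjusted p = 9.53e-09). Syvn1 (HRD1), the ubiquitin ligase at the core of ERAD, fell by 9.61%. Its partner Sel1l fell by 6.85%, a call lost with the length offset (edgeR adjusted p = 0.593). Edem1, which leads misfolded glycoproteins to ERAD, fell by 10.4%. The derlins form part of the channel out of the ER: Derl1 fell by 8.73% and Derl2 fell by 8.33%, the latter losing its call without M-EV replicate 1 (edgeR adjusted p = 0.101) or M-LPS-EV replicate 2 (adjusted p = 0.069). Derl3, typical of professional secretory cells, had 18 counts in the 3 M-EV libraries and 27 in the 3 M-LPS-EV libraries, too few for the test.

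In the entry and export group 4 of 5 fell. Sec61a1 and Sec61b, subunits of the channel through which proteins enter the ER, went from 467 ± 4.68 to 406 ± 4.49 CPM and from 102 ± 0.92 to 85.4 ± 4.27 CPM. Sec23a, an inner COPII coat protein on chromosome 12 from 58958383 to 59012017, went from 270.5, 279 and 269 CPM to 221, 216 and 227 CPM. The groups were well apart (log2 change -0.30 with SE 0.02, edgeR adjusted p = 3.39e-10). A link of this fall to that of Creb3l2 was not tested. Sec24d, the cargo-binding coat partner, fell less, by 6.25%, and lost its call without M-EV replicate 3 (edgeR adjusted p = 0.0588) and with the length offset (adjusted p = 0.25). Ckap4 (CLIMP-63), which shapes ER sheets, stood at 426 ± 0.86 and 429 ± 7.51 CPM and was not called (edgeR adjusted p = 0.715).

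Per length the order of the members was nearly the same in both groups. Hspa5 led with 1699 ± 20.5 TPM with M-EV and 1309 ± 44.7 TPM with M-LPS-EV, followed by Calr, Hsp90b1 and Pdia3 in both. Pdia6 and Sec61b came next and were within their spread of each other with M-EV (496 ± 1.54 and 491 ± 5.32 TPM), with Sec61b the higher in 1 library of each group. Manf and Canx, next in order, also did not differ beyond their spread with M-EV (378 ± 13.2 and 375 ± 14.7 TPM). Sensors were near the bottom: Ern1, Atf6 and Eif2ak3 had means between 30.2 and 40.4 TPM with M-EV. Creb3l1 moved from rank 31 of 33 to rank 24, the largest move. Summed, the members made up 0.857% to 0.861% of all TPM in the M-EV libraries and 0.727% to 0.746% in the M-LPS-EV libraries.

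Most of the cartilage matrix genes listed here, a part of what passes through the ER and called cargo below, fell as well. A list of 12 cartilage matrix genes, among them the collagen genes Col2a1, Col9a1 and Col11a1, the proteoglycan Acan and the link protein Hapln1, made up 6.40% to 6.46% of TPM with M-EV and between 5.39% and 5.52% with M-LPS-EV. Of these 11 fell and 1, Fn1 (fibronectin), rose (edgeR adjusted p = 0.000382), against 15.2% of all tested genes called lower and 16.4% called higher. The Fn1 call was lost with DESeq2 (adjusted p = 0.0764), on both TPM scales (limma adjusted p = 0.0949 and 0.0915) and in the 1.2-fold test. For each unit of member TPM there were 7.43 to 7.53 units of cargo TPM with M-EV and between 7.25 and 7.60 with M-LPS-EV, so this ratio overlapped between groups. Col2a1 weighs heavily in that ratio, with means of 33723 TPM with M-EV and 29545 TPM with M-LPS-EV. Gene by gene the cargo fell more: the median log2 fold change was -0.36 over the 12 cargo genes and -0.16 over the members. This difference was not tested. Secreted matrix genes outside this list, taken from the fibroblast markers, did not all fall. Dcn rose by 37.9% and Lum by 25.5%, Col3a1 was not called, and Col1a1 and Col1a2 fell by 9.94% and 21.4%. The 12 genes therefore do not stand for all that these cells secrete.

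Other genes of the same pathway, listed by function, fell in number too. Of 115 tested (of 117) 76 fell and 2 rose, with a median log2 fold change of -0.13. Over all tested genes 15.2% were called lower and 16.4% higher, and these shares apply to each list that follows. Among 24 other folding factors 14 fell and 1 rose: Serpinh1 (HSP47), the collagen chaperone, fell from 4619 ± 11.95 to 3449 ± 67.0 CPM and Cnpy2, an ER protein of the canopy family, from 182 ± 3.40 to 138 ± 1.73 CPM, while Ero1l, the oxidase that recharges disulfide isomerases, rose from 551 ± 4.68 to 688 ± 24.7 CPM. Among 21 other ERAD genes 12 fell and none rose, and of these Selenos, a derlin partner, fell by 17.1% and Fam8a1, a partner of HRD1, fell by 18.3%. The other 9 were not called. In this list, as in the next pair, no gene was higher at an unadjusted p under 0.05 either, and DESeq2 called 0.

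Of 25 genes of translocation, signal peptide cleavage and N-glycosylation 20 fell and none rose, beside 15.2% lower and 16.4% higher over all tested genes. Srpr, the receptor of the signal recognition particle, fell by 16.5% and the translocon-associated Ssr3 fell by 13.8%. Of 24 genes of COPII export and retrieval 19 fell and none rose. Kdelr2, a receptor that returns escaped chaperones to the ER, fell by 15.9%, and Lman1, a cargo receptor for glycoproteins, fell by 15.1%. Of 21 tested genes of unfolded protein response signalling 11 fell and 1 rose: Ppp1r15a (GADD34), which ends the translation block of PERK, fell from 272 ± 1.08 to 224 ± 3.09 CPM, and Chac1, a glutathione-degrading enzyme induced through ATF4, from 109.7 ± 2.37 to 83.4 ± 2.02 CPM. Stc2, a secreted glycoprotein induced by ER stress, rose by 4.92% (edgeR adjusted p = 0.0424), with overlapping groups, and was not called in 12 of 17 alternatives.

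**Figure D5:**
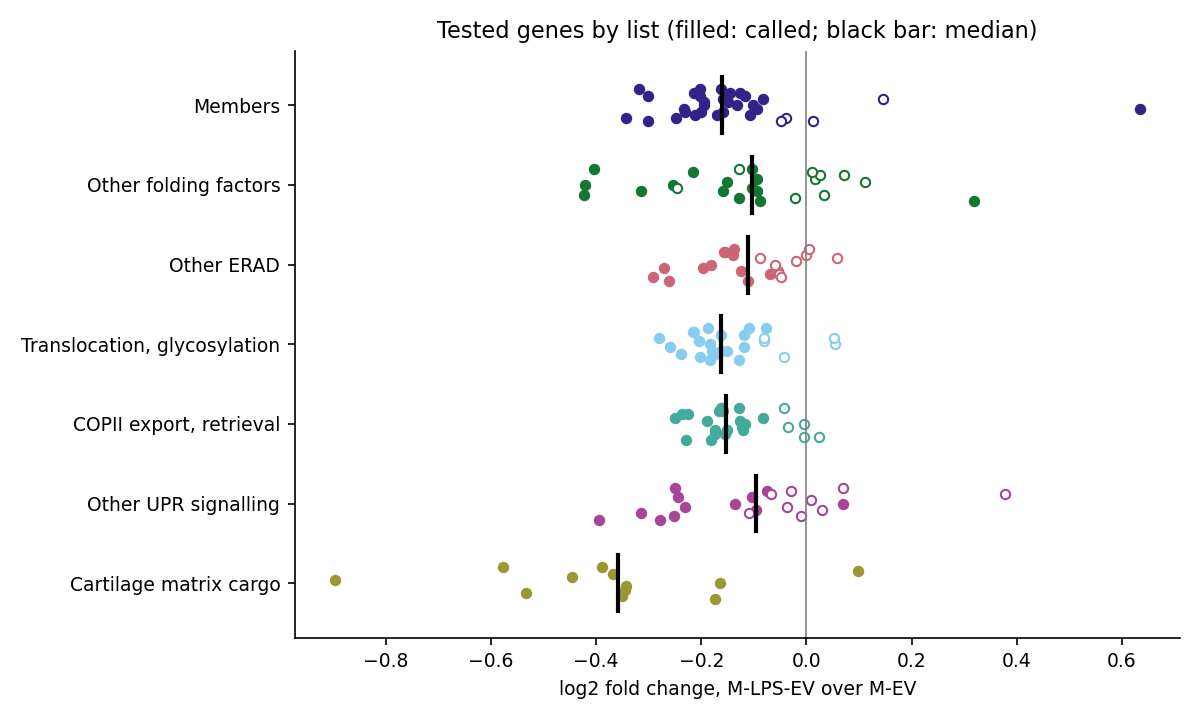
Log2 fold change of M-LPS-EV over M-EV (x axis) of tested genes in the member list, 5 lists of other ER pathway genes and 12 cartilage matrix genes (y axis); filled points were called and black bars are medians. Medians lie left of 0 in every list, from -0.095 in UPR signalling to -0.36 in the matrix genes.

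Transcript rows showed no switch of the leading transcript: in all 33 members the row with the largest mean share of the gene's TPM was the same in both groups. Leaving out Derl3, whose counts are few, 4 of 32 had a row that moved by over 5 percentage points. Hyou1-201 made up 72.6%, 66.4% and 72.1% of its gene with M-EV and 58.3%, 66.3% and 61.6% with M-LPS-EV, so the groups came close without overlapping. Syvn1-203 varied within groups more than between them, at 8.96%, 31.9% and 12.4% and at 18.2%, 8.57% and 0%. Among the rest, the retained-intron row Edem1-202 had means of 31.1% and 24.6% and Derl2-206 of 29.8% and 34.9%. These shares are estimates for rows that share reads, and they were not tested.

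The libraries held 20239626 to 25712667 expected counts each. Libraries of the same group differed by more than sampling noise (chi-square per degree of freedom 1.69 to 2.78), so none was counted as a duplicate. The tissue label fits the markers: 10 chondrocyte markers summed to between 122000 and 123000 CPM with M-EV and between 103000 and 105000 CPM with M-LPS-EV. Of these 9 fell, as most members did. The other, Sox9, had means of 286 CPM with M-EV and 298 CPM with M-LPS-EV and was not called (edgeR adjusted p = 0.0973). Among the 10 markers 7 are also in the list of matrix genes. Markers of macrophages, the source of the vesicles, summed to 25.3 to 27.7 CPM and 33.6 to 38.5 CPM over 10 genes, of which 4 of 9 tested were called, all higher, and Lyz2 made up most of the sum. Adgre1 and Cd14, 2 of the 4, stayed between 0.576 and 2.3 CPM. Fibroblast markers summed to 2040 to 2060 CPM and 2100 to 2150 CPM over 8 genes, with 3 lower and 2 higher. Osteoblast markers summed to 73.4 to 79.1 CPM and 74.8 to 76.2 CPM over 6 genes, with sums that overlapped while single genes moved: of 5 tested, Ibsp and Runx2 were higher, by 25.97% and 12.2%, and Sp7 dropped by 23.2%. The 5 endothelial markers summed to at most 2.2 CPM. Of 6 plasma cell markers 5 were under 1 CPM in every library, with Igkc at 0; their sum, 64.2 to 65.3 CPM and 93.7 to 100 CPM, was nearly all Sdc1. For all tested genes the share called either way was 31.6%, and the part of other cell types in the results was not tested.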

How the data were processed

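Messenger RNA libraries from a strand-specific kit were made from the chondrocytes, 3 per group and 6 in all, per the labels' protocols. The authors aligned reads to mm10 with STAR and estimated transcripts with RSEM, per the submitters' processing notes, which also name DESeq2; their versions are not stated there. The deposited tables give an expected count, a TPM value and the percent of its gene's TPM (IsoPct) for each of 142699 transcripts. IDs were named with GENCODE M21, which held 99.07% of the transcripts.

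Expected counts were summed per gene, rounded and tested with edgeR 4.0.16 in R 4.3.3: filterByExpr, TMM scaling, quasi-likelihood F-test, Benjamini-Hochberg adjustment over 14604 genes at a threshold of 0.05. CPM values are TMM-scaled. Each SE of an edgeR log2 fold change was derived from the test, as its absolute value divided by the square root of the F statistic. TPM was summed per gene. Transcript percentages were compared by exact permutation. Promoters were RefSeq's of build GRCm38.p6. The fitting script was tested on simulated data.

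Alternatives were scaling by RLE or by the upper quartile, testing without a filter or only above a mean count of 50, an effective length offset, a replicate block, a test against 1.2-fold, leaving out each library, DESeq2 1.42.0, limma 3.58.1 (voom) and limma-trend on log2(TPM + 1) and log2(TPM + 0.1).

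The members, the lists and the tests were chosen with earlier results of these data known. Members called with an absolute log2 fold change of at least 0.25, Hspa5, Hsp90b1, Xbp1, Atf6, Ern1 and Eif2ak3, and any called against the majority got values per library; in each list of other genes up to 2 called in each direction with the smallest p were named. Reads that transcripts share are split by estimation, so transcript values are less certain than gene values. Libraries held 20239626 to 25712667 expected counts; protein sequences were not used here.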

Additional observations from a re-analysis of the deposited data

How the results depend on the processing

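Of the 28 called members 22 kept their call in every alternative other than the 1.2-fold test, and all 27 that fell stayed lower in all 17 alternatives. Members called lower numbered 22 with the effective length offset, 23 on either TPM scale, 26 to 27 without each replicate and 1 in the 1.2-fold test; that number was 27 elsewhere, and the 1 called higher did not change. Other pathway genes called lower were 4 in the 1.2-fold test. Those called higher were 1 in place of 2 with RLE or upper-quartile scaling, no count filter, the length offset, the 1.2-fold test, DESeq2 and both TPM scales, and 1 to 2 without each replicate. Over all genes, lower and higher calls numbered 1328 and 1539 with the length offset, 377 and 760 in the 1.2-fold test, 1342 and 1280 on log2(TPM + 1) and 1335 and 1284 on log2(TPM + 0.1). The log2 fold change of Ckap4, not called in any of these, changed sign from 0.012 to -0.002 with upper-quartile scaling and to -0.010 on both TPM scales. The Xbp1-201 share differed by -0.28 points, and by -0.637 to 0.353 without each replicate, with the change of sign, 0.353, without M-LPS-EV replicate 2. Allowing 1 mismatch raised members with an ERSE from 9 to 14 (1.72% of all genes) and with an ERSE-II from 2 to 8 (1.31%). The cause of these changes was not tested, except that the 1.2-fold test asks for a larger change by construction. Same-numbered libraries did not deviate together (r = 0.028, -0.044 and -0.019), which gave no sign of pairing. Noise of genes with few counts could hide a weak shared effect, so pairing was not excluded. With the replicate block 27 members were lower and 1 higher, and the Xbp1-201 share differed by -0.28 points (exact sign-flip p = 1.0). Among the members Derl3, with 18 and 27 counts, was the 1 with too few for the test.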

Other observations

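Of 11 tested genes outside the members with an exact ERSE in their RefSeq promoter 1 fell and 2 rose (9.09% and 18.2%), against 16.1% called lower and 17.2% called higher among all tested genes with a promoter; they were looked at after the members' values were seen. Spats2l, a gene linked to cell stress, had the largest change, from 129 to 98.3 CPM (log2 change -0.39 with SE 0.031, edgeR adjusted p = 2.46e-10). Adcy3, an adenylyl cyclase, rose from 35.7 to 41.8 CPM (0.23, SE 0.045, edgeR adjusted p = 0.000282). Pan2, a subunit of a poly(A) nuclease, rose from 25.1 to 29.0 CPM (0.21, SE 0.051, edgeR adjusted p = 0.00251). Hnrnpa3, the most abundant of them, stood at 529 and 534 CPM and was not called (edgeR adjusted p = 0.638). Alg12, a mannosyltransferase of N-glycan assembly in the ER, went from 13.2 to 11.8 CPM (-0.15, edgeR adjusted p = 0.183).

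Within several members a large share of TPM fell on rows that encode no full protein, in both groups. Manf-205, annotated as a retained intron, made up 38.0% of the Manf TPM with M-EV and 36.8% with M-LPS-EV. Hspa5-204, annotated as a target of nonsense-mediated decay, made up 21.4% and 20.2% of the Hspa5 TPM. TPM is per length, so these short rows weigh more in it than in counts. In M-EV replicate 1 Hspa5-204 (477 bases) held 1406 expected counts and Hspa5-202 (2613 bases) held 42378. In the same library Manf-205 (502 bases) held 667 expected counts and Manf-201 (960 bases) held 2308. These shares were not tested.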
